A study of Mus musculus with 4 samples.

Results

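The epidermal differentiation transcription factors described here are 10 genes, *Trp63*, *Klf3*, *Klf4*, *Klf5*, *Ovol1*, *Grhl1*, *Grhl3*, *Cebpa*, *Cebpb* and *Gata3*, chosen by name from the 24378 gene rows of the tables. Each of them had 1 row in all 4 tables. In the epidermis, p63 (encoded by *Trp63*) maintains the keratinocyte identity and the growth of basal cells and prepares them for stratification. KLF4, the grainyhead-like factors GRHL1 and GRHL3, C/EBPα and C/EBPβ act later, when a cell withdraws from the basal programme and builds the barrier, while OVOL1 restrains proliferation at that step and GATA3 takes part in barrier lipid production.

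The cells came from the dorsal skin of 2 female *Ivl-CreERT2*/*R26-tdTomato* mice, 57 days old, that had received tamoxifen 2 days earlier, at 10 µg per g by the labels. The study's methods state a higher dose for this mouse line, and which dose these mice had is not known here. Both groups of cells therefore carried the Cre transgene and the reporter allele and had seen tamoxifen. The Cre is driven by the promoter of involucrin (*Ivl*), a gene of differentiating keratinocytes, so that Tom+ cells are cells with activity of this promoter at labelling, or their progeny, and Tom- cells are those without recombination. Both groups were gated as live interfollicular cells with surface CD49f and LY6A and without CD34, then separated by tdTomato and captured on Fluidigm C1 chips, 1 chip per library, 2 libraries per group. A pair of title tags, here called runs 1 and 2, each cover 1 Tom+ and 1 Tom- library, and the labels do not say which mouse a library came from.

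Unique molecular identifiers (UMIs, each standing for 1 captured transcript) were counted per gene and well. Of 384 wells, the 161 with at least 2000 gene UMIs were used as cells, namely 35 and 58 Tom+ cells (runs 1 and 2) and 20 and 48 Tom- cells, with 81630 to 305407 UMIs per library and no well name shared between libraries. The reporter row held UMIs in 16 of 35 and 29 of 58 Tom+ cells, against 0 of 20 and 3 of 48 Tom- cells. The Cre row held UMIs in 10 of 35 and 19 of 58 Tom+ cells and in 2 of 20 and 11 of 48 Tom- cells. Some Tom- cells thus carried transcripts of the *Ivl*-driven Cre. Of the kept cells, 152 had at least 3 of 6 basal keratinocyte markers, whereas 3 had at least 3 T cell markers, 3 Langerhans cell markers, 3 sebaceous gland markers, 5 bulge markers and none 3 melanocyte markers. Infundibulum markers reached 3 per cell in 51 cells, of which 27 were in the Tom+ library of run 2, and these 51 cells held 34.8% of all UMIs and between 20.3% (*Grhl3*) and 39.5% (*Cebpa*) of the UMIs of each transcription factor.

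The upstream sequences of 4 of the factors are shown because *Cebpa*, *Grhl1* and *Grhl3* had the highest estimates between the sorts and *Klf4* stayed near 0 in each comparison. Each is the 250 bases before the RefSeq start site (GRCm38.p6), read 5′ to 3′ on the gene's strand, with a TATA box (the letters TATAAA) and each GC box (the letters GGGCGG), on either strand, in capitals. They are chr7:35119043-35119292 (plus strand) for *Cebpa*, chr12:24572037-24572286 (plus strand) for *Grhl1*, chr4:135573633-135573882 (minus strand) for *Grhl3* and chr4:55532476-55532725 (minus strand) for *Klf4*.
Cebpa: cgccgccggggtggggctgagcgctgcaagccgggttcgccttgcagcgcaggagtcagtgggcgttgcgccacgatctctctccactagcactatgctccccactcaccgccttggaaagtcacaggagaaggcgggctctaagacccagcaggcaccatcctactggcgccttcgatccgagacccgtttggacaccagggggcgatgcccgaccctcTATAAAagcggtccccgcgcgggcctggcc
Grhl1: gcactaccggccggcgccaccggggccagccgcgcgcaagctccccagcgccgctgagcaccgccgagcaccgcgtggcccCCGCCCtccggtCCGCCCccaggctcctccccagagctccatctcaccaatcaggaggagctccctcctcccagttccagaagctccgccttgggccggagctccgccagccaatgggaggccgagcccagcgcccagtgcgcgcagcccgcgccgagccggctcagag
Grhl3: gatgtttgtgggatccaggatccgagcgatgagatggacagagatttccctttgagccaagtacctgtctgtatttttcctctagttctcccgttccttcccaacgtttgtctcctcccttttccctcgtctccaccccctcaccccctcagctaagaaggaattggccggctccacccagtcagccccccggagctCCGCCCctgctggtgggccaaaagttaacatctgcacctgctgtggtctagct
Klf4: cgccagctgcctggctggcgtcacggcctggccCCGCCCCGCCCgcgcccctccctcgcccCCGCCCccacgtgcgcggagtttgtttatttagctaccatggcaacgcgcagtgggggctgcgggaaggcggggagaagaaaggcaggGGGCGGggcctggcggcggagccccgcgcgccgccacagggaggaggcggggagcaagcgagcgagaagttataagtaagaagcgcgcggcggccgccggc

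RefSeq start sites were matched for 7 of the 10 genes, with 8 windows in all, since *Grhl1* has a second start. *Cebpa* was the single gene of these with a TATA box, beginning 30 bases before its start, and 12.4% of 32851 promoter windows of this length hold these letters. GC boxes lay in 6 of the 8 windows (4 copies for *Klf4*, 2 for the first *Grhl1* start and 1 for *Grhl3*), against 32.7% of all windows. These 6 windows held 56 to 81.6% G and C bases, beside a median of 52.4% over all windows. The part of base composition in the count of GC boxes was not tested. CACCC, the box that KLF proteins can bind, was present in 6 of the 8, against 52.0% of all windows. No window held AGATAA, bound by *Gata3* and its relatives, or TTGCNNAA, bound by the C/EBP family, which 9.99% and 9.56% of all windows hold. *Trp63*, without a matched window, lies at chr16:25683763-25892102 and *Gata3* at chr2:9857078-9890034 (GRCm38, GENCODE M21). Overlapping genes with rows of their own in the tables held 6 UMIs opposite *Cebpb*, and 15 opposite and 2 on the strand of *Gata3*, and whether the counting used strand is not given in the sources used here.

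*Gata3* and *Klf4* were found in nearly every cell, and *Grhl3* in few. At full depth, *Gata3* had a UMI in 145 of the 161 cells, *Klf4* in 143 and *Trp63* in 122. *Klf5* was detected in 88 cells, *Cebpa* in 76, *Klf3* in 54, *Ovol1* in 49, *Grhl1* in 48, *Cebpb* in 29 and *Grhl3* in 20. These counts depend on depth and on how well each transcript is captured, so the genes are not ranked by level. A cell held UMIs of 1 to 9 of the factors, with a median of 5. When every cell was thinned at random to 2000 UMIs, the mean was 3.42 factors per cell, at 4.00 in the 69 Krt10-positive cells and 2.98 in the 92 Krt10-negative cells. Krt10-positive means at least 6 *Krt10* UMIs among the 2000, *Krt10* being the keratin that replaces *Krt14* as cells leave the basal state, and 6 cells had 5 or 6. Within each of the 4 libraries the Krt10-positive cells also held more of the factors on average. The means were 4.08 against 2.10 and 4.00 against 3.43 in the Tom+ libraries. In the Tom- libraries they were 3.67 against 3.59 (SD over cells 2.31 and 1.28) and 3.75 against 2.73. The number of all genes detected per thinned cell was not compared between the classes. The Tom- libraries contained only 3 and 4 Krt10-positive cells, the Tom+ libraries 25 and 37.

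The first comparison asked which of the factors differ between Tom+ and Tom- cells. No factor passed the threshold of adjusted p 0.05 (edgeR quasi-likelihood test on summed UMIs, Benjamini-Hochberg adjustment over 3070 genes), while 1.24% of all tested genes did. Of the 9 factors that passed the filter on low counts, 4 had an unadjusted p under 0.05, of 302 genes in all, and these were *Trp63*, lower in Tom+ cells, and *Grhl3*, *Cebpa* and *Grhl1*, higher in Tom+ cells. With the title tag shared by a Tom+ and a Tom- library as a block, 116 of 3070 genes passed. Among them were 3 of these factors, namely *Trp63* (-1.13, edgeR adjusted p = 0.00107), *Grhl3* (2.43, edgeR adjusted p = 0.0201) and *Cebpa* (1.24, edgeR adjusted p = 0.0263). The calls depend on whether the tag pairs the libraries, which the labels do not say. *Grhl3* met the filter on low counts through the Tom+ libraries alone, the group in which it was higher. For reference, *Krt10* was 4.68-fold higher in Tom+ cells (adjusted p = 0.000174).

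*Trp63* stood at 2.99 and 4.03 UMIs per 10000 gene UMIs in the Tom+ libraries of runs 1 and 2 and at 9.80 and 6.07 in the Tom- libraries. Both Tom+ libraries were thus below both Tom- libraries. This held for no other factor, and 18.0% of all tested genes showed this order. The difference was -1.15 on the log2 scale (SE 0.31, 95% interval -1.81 to -0.50), or 0.449 of the Tom- level, with an adjusted p of 0.0894 in edgeR. After thinning, 48.6% and 50.0% of Tom+ cells had a *Trp63* UMI, against 80.0% and 60.4% of Tom- cells. The exact 95% intervals of these shares overlapped between groups (31.4 to 66.0% and 36.6 to 63.4% against 56.3 to 94.3% and 45.3 to 74.2%), and an exact two-sided permutation test over 2 against 2 libraries gave p = 0.333, the smallest it can give. Over 15 alternative settings the log2 difference of *Trp63* remained negative, from -1.63 to -0.80, with adjusted p between 0.00107 and 0.849. It passed without the Tom- library of run 2 (-1.39, edgeR adjusted p = 0.0214), while without the Tom+ library of run 1 it was -0.91 (edgeR adjusted p = 0.849).

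Both grainyhead-like genes and *Cebpa* had the opposite order. *Grhl3*, which directs the late steps of barrier formation, gave 12 and 42 UMIs in the Tom+ libraries and 3 and 2 in the Tom- libraries, or 0.763 and 1.38 against 0.368 and 0.108 UMIs per 10000. Its fitted log2 difference was 2.43 (SE 0.70, 95% interval 0.98 to 3.87, edgeR adjusted p = 0.105). This difference rests on few cells. At full depth, 17 of the 20 cells with a *Grhl3* UMI were Tom+, beside 93 of all 161 cells. Of the 59 UMIs, 1 cell held 10. *Grhl3* entered the test through the Tom+ libraries alone, since both of these and neither Tom- library reached the minimum of the filter on low counts, so the filter itself favoured a gene that is higher in Tom+ cells. It passed without the Tom+ library of run 1 (2.78, edgeR adjusted p = 0.04999) and without the Tom- library of run 1 (3.21, edgeR adjusted p = 0.0220). Without the Tom+ library of run 2 it was 1.79 (edgeR adjusted p = 0.956) and without the Tom- library of run 2 it was 1.66 (edgeR adjusted p = 0.567).

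*Grhl1*, a regulator of desmosomal genes in the epidermis, stood at 1.65 and 1.38 UMIs per 10000 in Tom+ and at 0.490 and 0.596 in Tom- libraries (log2 difference 1.36, SE 0.49, edgeR adjusted p = 0.258), and 1 of the 2 Tom- libraries did not reach the minimum of the filter. *Cebpa*, which slows the cycling of basal cells, reached 2.80 and 3.31 in Tom+ and 2.08 and 0.813 in Tom- libraries (log2 difference 1.21, SE 0.41, edgeR adjusted p = 0.222), and passed without the Tom- library of run 1 (1.82, edgeR adjusted p = 0.0277), while without the Tom- library of run 2 it was 0.63 (edgeR adjusted p = 0.764). In the thinned cells, the share with a *Cebpa* UMI was 42.9% and 36.2% for Tom+ and 25.0% and 8.33% for Tom- libraries. Of all tested genes, 20.8% had both Tom+ libraries above both Tom- libraries, and *Grhl1*, *Grhl3*, *Cebpa* and *Klf4* were among them.

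The intervals of the other tested factors contained 0. *Klf4* had 11.4 and 12.2 UMIs per 10000 in Tom+ and 11.0 and 9.43 in Tom- libraries, and its 95% interval for the log2 difference ran from -0.35 to 0.72. *Gata3* had 12.8 and 10.2 against 13.6 and 10.5, with an interval of -0.64 to 0.44. Both intervals lay within a 2-fold difference in either direction.

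*Klf5* stood at 2.48 and 1.83 against 2.21 and 1.52 UMIs per 10000 (interval -0.58 to 0.99), and *Klf3* at 1.72 and 1.08 against 1.72 and 0.650 (interval -0.68 to 1.33). For *Ovol1* the Tom+ library of run 2 was higher, at 2.52, than the other 3 libraries, which lay between 1.10 and 1.41, and 18 of its 77 UMIs in that library came from 1 cell. *Cebpb* lay under the filter on low counts, with 5 and 21 in Tom+ and 3 and 9 in Tom- libraries. The wide intervals of *Klf3* and *Ovol1* (-0.32 to 1.45) do not show equal levels.

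**Figure D1:**
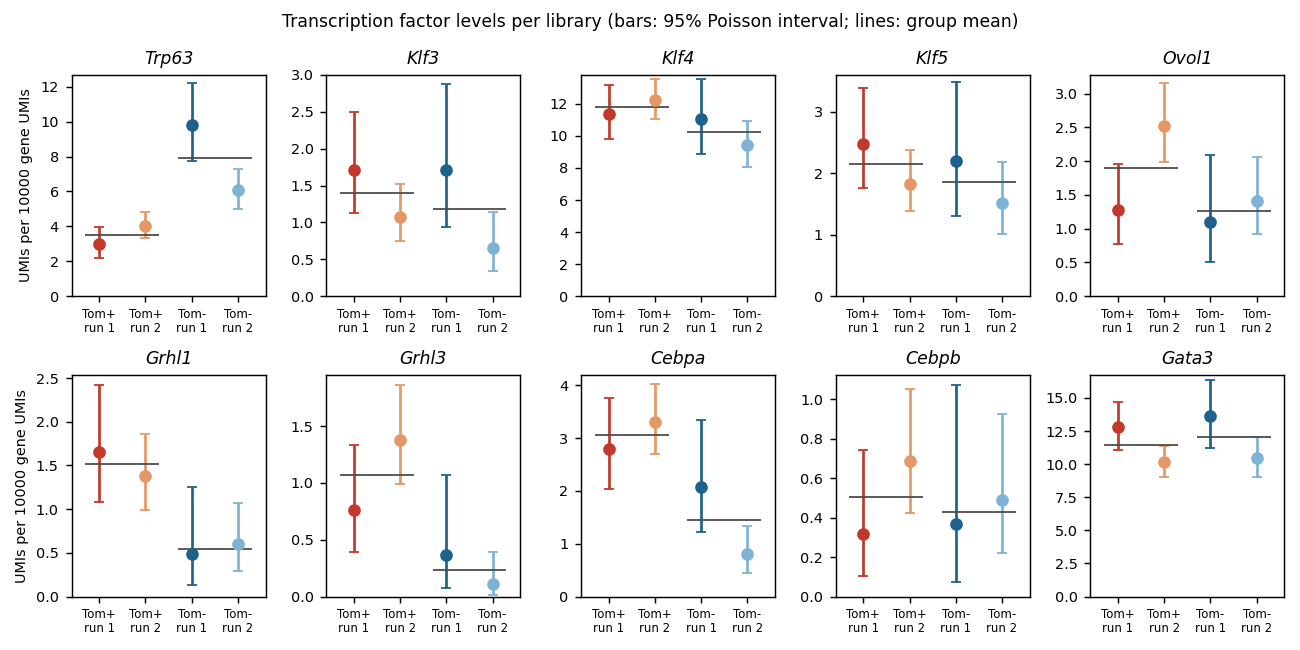
Level of each factor in the 4 libraries, as UMIs per 10000 gene UMIs (vertical axis, starting at 0 and scaled per gene), with 95% Poisson intervals for counting error and the mean of each group as a line. Both Tom+ points lie below both Tom- points for *Trp63* and above them for *Grhl1*, *Grhl3*, *Cebpa* and, by little, *Klf4*.

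The second comparison asked which factors follow the *Krt10* state of a cell, whatever its sort. UMIs were summed per library and Krt10 class and compared within libraries. *Cebpa* was the single factor of 6 tested that passed, 2.38-fold higher in Krt10-positive cells (log2 difference 1.25, SE 0.40, edgeR adjusted p = 0.0452), in a comparison in which 9.44% of 1165 genes passed. In Krt10-positive cells *Cebpa* stood at 3.53 and 3.85 UMIs per 10000 in the Tom+ libraries and at 2.38 and 4.42 in the Tom- libraries, and in Krt10-negative cells at 1.34, 2.05, 2.01 and 0.473 in the same order. Its level was thus higher in all 4 libraries, as were those of 14.5% of tested genes. The 4 Tom- values of *Cebpa* rest on 4 to 13 UMIs each. The share of thinned cells with a *Cebpa* UMI went the other way in the Tom+ library of run 2. There it was 29.7% of Krt10-positive against 47.6% of Krt10-negative cells. In the Tom+ library of run 1 it was 52.0% against 20.0%. The Tom- shares were 33.3% against 23.5% in run 1 and 50.0% against 4.55% in run 2.

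The call for *Cebpa* was a narrow one. It was lost without the Tom+ library of run 1 (adjusted p = 0.290), without that of run 2 (0.0733) and without the Tom- library of run 2 (0.142), and the log2 difference was then between 0.91 and 1.55. Over 15 alternatives its adjusted p ran from 0.00793 to 0.972, with the difference positive in each, and with 20 other draws of the thinning that sets the class it passed in 8.

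For *Trp63* no difference by *Krt10* state was detected. Its level in Krt10-positive against Krt10-negative cells was 3.72 against 1.53 and 4.14 against 3.78 UMIs per 10000 in the Tom+ libraries, and 10.7 against 9.57 and 5.05 against 6.16 in the Tom- libraries. It was higher in 3 libraries and lower in 1, with a fitted log2 difference of 0.23 (95% interval -0.36 to 0.82, edgeR adjusted p = 0.756). None of the 6 tested factors was lower in Krt10-positive cells of all 4 libraries, and 14.2% of the 1165 tested genes were. With 6 factors, none cannot be told apart from that share. *Krt14*, the basal keratin, had a log2 difference of -3.41 in the same sums (edgeR adjusted p = 4.22e-08). Over the alternatives the sign of the *Trp63* difference turned in 5 of 18, one of them without the Tom+ library of run 1 (-0.025).

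*Klf4*, *Gata3* and *Klf5* were also near 0, with intervals of -0.36 to 0.53, -0.19 to 0.65 and -1.04 to 0.59. *Klf4* was higher in the Krt10-positive cells of both Tom+ libraries (11.9 against 10.3 and 13.5 against 9.39 UMIs per 10000) and lower in those of both Tom- libraries (9.51 against 11.4 and 7.57 against 9.60). The test of this difference between the sorts gave an interaction of 0.76 (SE 0.43, edgeR adjusted p = 0.924), and no factor passed that test. *Ovol1* had an estimate of 0.93 (SE 0.53, edgeR adjusted p = 0.383), with Krt10-positive cells higher in the libraries of run 2 (3.24 against 0.863 and 4.42 against 1.13) and not in those of run 1 (1.24 against 1.34 and 0 against 1.39). The Krt10-positive Tom- values rest on 0 UMIs in 3 cells (run 1) and 7 UMIs in 4 cells (run 2). In the Krt10-positive Tom+ cells of run 2, 1 cell held 18 of 69 UMIs. The difference between the runs was not tested.

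*Grhl1*, *Grhl3*, *Klf3* and *Cebpb* had too few UMIs for this test, and their values are given without one. The levels of *Klf3* and *Cebpb* were each higher in the Krt10-positive cells of 3 libraries and lower in 1. *Klf3* was lower in the Tom- library of run 2 (0 against 0.711 UMIs per 10000), and *Cebpb* in that of run 1 (0 against 0.463). *Grhl1* was higher in the Krt10-positive cells of every library, at 2.29 against 0.382 and 1.74 against 0.540 UMIs per 10000 in Tom+ and 1.19 against 0.309 and 1.26 against 0.533 in Tom- libraries. These levels rest on 24 against 2 and 37 against 5 UMIs in Tom+ libraries. In Tom- libraries they rest on only 2 against 2 and 2 against 9 UMIs. Of all tested genes, 14.5% were higher in all 4 libraries. *Grhl3* had 53 of its 59 UMIs in Krt10-positive cells, which were 69 of the 161 cells. Of these UMIs, 52 were in the Tom+ libraries, and the 3 Krt10-positive Tom- cells of run 1 had 0. At full depth, 46 of the 48 cells with a *Grhl1* UMI and 19 of the 20 with a *Grhl3* UMI also had *Krt10*, beside 118 of all 161 cells. For *Cebpa* this held for 69 of 76 cells and for *Trp63* for 92 of 122. Deeper cells show more genes of any kind. Thinned to 2000 UMIs, *Krt10* was present in 22 of 26 cells with *Grhl1*, 13 of 13 with *Grhl3*, 39 of 45 with *Cebpa* and 60 of 91 with *Trp63*, beside 110 of all 161.

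*Krt14* was detected in most cells with a late factor, but in no larger share of them than of all cells. At full depth, of the cells with *Grhl1*, 40 of 48 also had a *Krt14* UMI, as did 18 of 20 cells with *Grhl3* and 68 of 76 with *Cebpa*, against 145 of all 161 cells. After thinning, these were 16 of 26 cells with *Grhl1*, 9 of 13 with *Grhl3* and 35 of 45 with *Cebpa*, against 134 of all 161. Of the 20 *Grhl3* cells at full depth, 15 held *Cebpa*, 11 *Grhl1* and 10 *Ovol1*, and of the 13 after thinning, 5 held *Cebpa*, 5 *Grhl1* and 6 *Ovol1*.

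**Figure D2:**
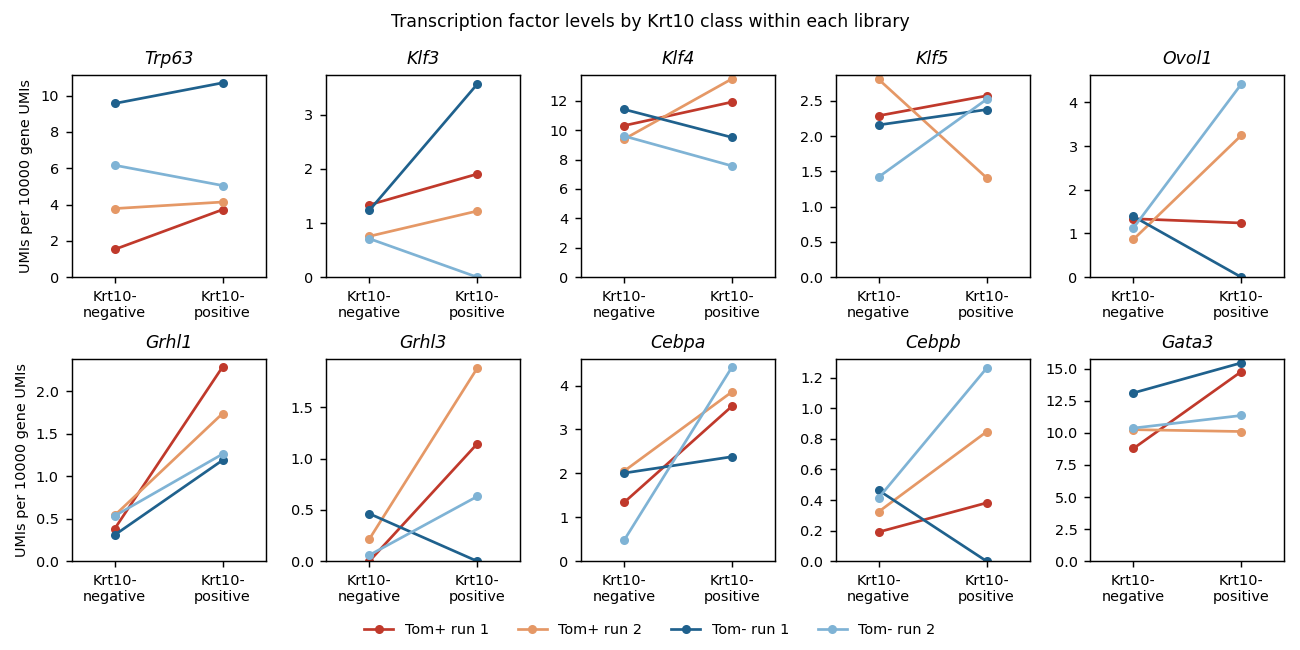
Level of each factor in Krt10-negative and Krt10-positive cells of the same library, joined by a line (vertical axis UMIs per 10000 gene UMIs, starting at 0 and scaled per gene). All 4 lines slope upwards for *Cebpa* and *Grhl1*, while for *Trp63* the Tom- lines of runs 1 and 2 lie above both Tom+ lines in either class. The Krt10-positive Tom- points rest on 3 and 4 cells.

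The third comparison asked whether the sorts differ among cells of low *Krt10*. Only Krt10-negative cells were compared, 10 and 21 Tom+ against 17 and 44 Tom- cells. No factor passed, and 0.231% of 1296 genes did. *Trp63* had the smallest p of the 6 tested factors, at 1.53 and 3.78 UMIs per 10000 in the Tom+ libraries against 9.57 and 6.16 in the Tom- libraries (log2 difference -1.50, SE 0.40, 95% interval -2.30 to -0.69, edgeR adjusted p = 0.0771). Both Tom+ libraries were below both Tom- libraries, and the Tom+ value of run 1 rests on 8 UMIs in 10 cells. Of the 6 tested factors, 2 had this order in Krt10-negative cells and 1 had the reverse. The share of all tested genes with this order was not counted in these cells. For *Trp63* the adjusted p ran from 0.0189 to 0.998 over 15 alternatives and passed in 2 of them, with the sign kept in each. One of these was the fit without the Tom+ library of run 2 (-2.39). Without the Tom+ library of run 1 the *Trp63* difference was -1.02.

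By point value, the same order was present at each step of *Krt10* in both runs. In run 1, *Trp63* stood at 2.17, 1.18 and 3.72 UMIs per 10000 in Tom+ cells with 0, 1 to 5 and at least 6 *Krt10* UMIs, and at 10.7, 8.42 and 10.7 in Tom- cells. In run 2 the values were 5.36, 3.47 and 4.14 in Tom+ and 6.45, 5.29 and 5.05 in Tom- cells. Only 4 and 2 Tom+ cells had no *Krt10* UMI, so the first step is little more than a count. Krt10-negative cells were not alike in *Krt10* itself, which stood at 7.64 and 13.0 UMIs per 10000 in Tom+ and 5.09 and 2.25 in Tom- libraries, and the part of this in the *Trp63* difference was not tested. *Krt14* did not show the order of *Trp63* in these cells (187 and 210 in Tom+ against 157 and 154 in Tom- libraries, edgeR adjusted p = 0.998).

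For the other factors in Krt10-negative cells the estimates were small beside their errors. *Cebpa* stood at 1.34 and 2.05 against 2.01 and 0.473 UMIs per 10000 (log2 difference 0.67, SE 0.65), and the groups overlapped. *Gata3* (-0.33, SE 0.30), *Klf4* (-0.14, SE 0.30), *Klf5* (0.53, SE 0.49) and *Ovol1* (-0.27, SE 0.71) overlapped 0 in their 95% intervals. *Grhl1* and *Grhl3* had 18 and 6 UMIs in all Krt10-negative cells together, of which 7 and 2 were in Tom+ cells, so no difference between sorts was detectable at this depth.

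**Figure D3:**
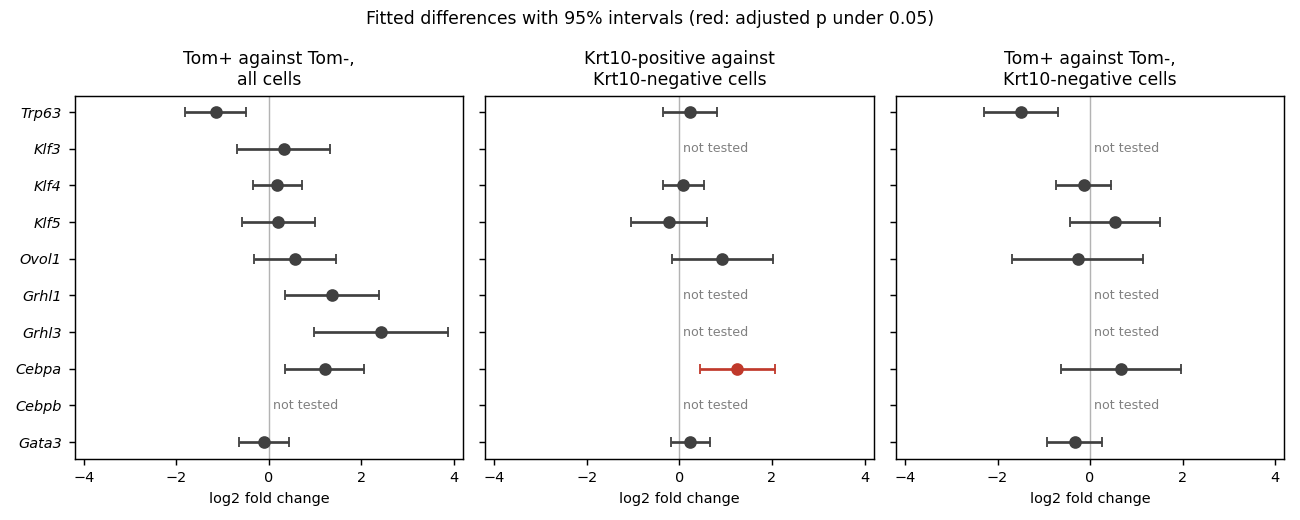
Fitted log2 fold changes with 95% intervals (horizontal axis) for the 10 factors in the 3 comparisons, with factors under the filter on low counts written as not tested. *Cebpa* by Krt10 class is the only estimate past the adjusted threshold, and the *Trp63* interval lies below 0 in both sort comparisons and spans 0 by Krt10 class.

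**Figure D4:**
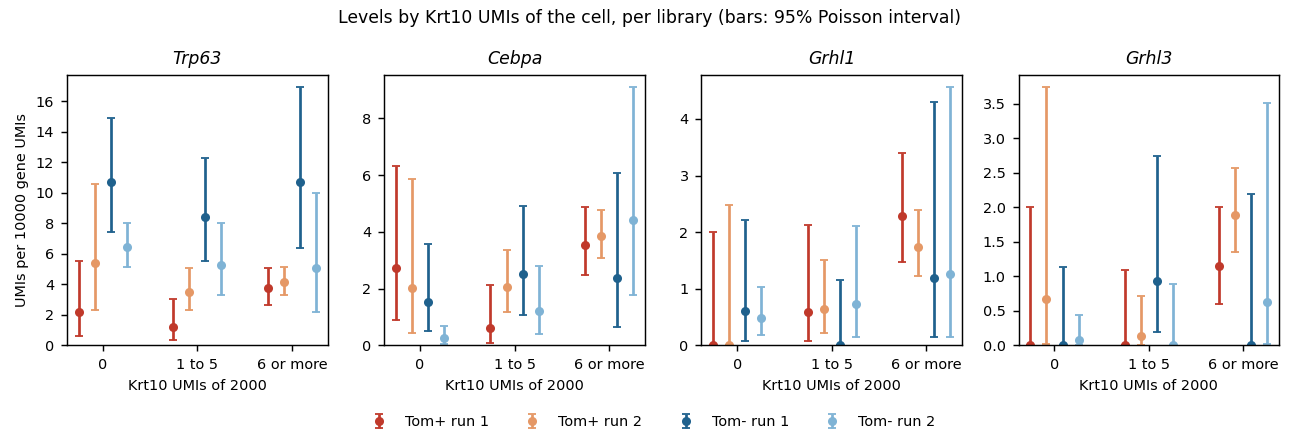
Level (UMIs per 10000 gene UMIs, starting at 0) of 4 factors in cells with 0, 1 to 5 and at least 6 *Krt10* UMIs among 2000, per library, with 95% Poisson intervals for counting error. *Trp63* in Tom- cells of run 1 lies between 8.42 and 10.7 at all steps, and *Grhl1* and *Grhl3* have most of their UMIs at the highest step.

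The genes around these factors were counted with the same fits. Of 40 further epidermal transcription factors, 23 were tested between the sorts and none passed, with *Bhlhe40* (log2 difference -1.38, edgeR adjusted p = 0.0768) and *Zfp750* (1.31, edgeR adjusted p = 0.144) having the smallest p. By Krt10 class, 12 were tested, 1 rose and 2 fell. *Zfp750*, a p63 target needed for terminal differentiation, was higher in Krt10-positive cells by 2.37 on the log2 scale (edgeR adjusted p = 0.000289). *Bhlhe40*, a helix-loop-helix repressor, was lower (-1.99, edgeR adjusted p = 0.00145), as was *Hopx*, a homeodomain protein without DNA binding (-1.49, edgeR adjusted p = 0.0181).

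Genes that mark the states before and after the switch were counted as well. Of the early differentiation list of 15 genes, 9 of 11 tested were higher in Tom+ cells, with a median log2 difference of 2.06, and 10 of 10 tested were higher in Krt10-positive cells (median 2.63). Among them *Krtdap*, a secreted keratinocyte peptide, differed by 2.95 between sorts and by 5.58 by class. Of the basal list of 20 genes none of 18 tested passed between sorts (median -0.71), while by class 6 of 14 fell, *Krt14*, *Krt5*, *Col17a1*, *Itga3*, *Lamb3* and *Cav1*, and 1, the desmosomal *Perp*, rose. Of the 22 genes of cornification and barrier, 1 was tested between sorts and did not pass (*Casp14*, log2 difference 0.67, edgeR adjusted p = 0.919), and none could be tested by class. In Krt10-negative cells 2 of 7 early differentiation genes were higher in Tom+ cells, *Krt1* (3.03) and *Krtdap* (4.43), and none of 17 basal genes passed.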

How the data were processed

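The authors prepared 5′-end libraries on Fluidigm C1 chips and deposited tables of whole UMI counts, a row per gene and a column per well, that had not been normalized. The submitters' processing notes name the builds mm10 and GRCm38. The aligner, counter and annotation are not given in the sources used here.

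The tables also hold 109 rows of spike-ins and reporters, which were left out of library sizes. Wells with at least 2000 gene UMIs were kept (161 of 384), without a doublet caller and without leaving out cells of high counts. Levels are UMIs per 10000 gene UMIs, with 95% Poisson intervals, and shares of cells have exact 95% Clopper-Pearson intervals after thinning each cell to 2000 UMIs with seed 1. Intervals cover counting error only. Cells are not replicates: UMI counts were summed per library, or per library and Krt10 class, and tested with edgeR 4.0.16 (R 4.3.3) by its quasi-likelihood test after TMM scaling and filterByExpr, at a Benjamini-Hochberg adjusted p of 0.05, with library as a block in the class comparison and *Krt10* left out of its calls. In the sort comparisons without a block the p-values measure the spread between libraries, since the labels do not tie libraries to the 2 mice. In the class comparison and the interaction, with library as a block, they measure how the class difference varies from library to library. Libraries of a group differed beyond sampling noise (chi-square per degree of freedom 2.36 for Tom+ and 2.29 for Tom-). The procedure was tested on simulated data shaped like the sort comparison, where it recovered 86.9% of genes changed 4-fold and 29.0% of those changed 2-fold among 3024 genes, with 3 false of 116 calls. Promoter windows came from RefSeq and gene positions from GENCODE M21. Scripts used Python 3.11.15, NumPy 2.4.6, SciPy 1.17.1, pandas 2.3.3 and Matplotlib 3.10.9.

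The factors, the gene lists and the tests were chosen with earlier results of these data known. The rule allowed the text to name all 10 factors, *Krt10* and *Krt14*, and of each list the genes past the threshold or, if fewer than 2 passed, the 2 with the smallest p. Alternatives were limma-voom (limma 3.58.1), size factors or the Wald test of DESeq2 1.42.0, no filter, minimums of 1000 and 5000 UMIs, the fit without the deepest 5% of cells, thinned sums, each library left out (the lone library of a group was then assumed to vary like the others), the run as a block, other *Krt10* limits and 20 other seeds. Leaving out cells that carry 3 or more markers of other cell types was added after the data had been seen.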

Additional observations from a re-analysis of the deposited data

Results flagged for a closer look

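Wells below the minimum of 2000 gene UMIs entered no comparison, and 54 of them held 30056 gene UMIs in all. Above the 3 counts that a count of 0 allows, they held 45 UMIs of *Gata3*, 33 of *Klf4*, 17 of *Trp63*, 8 of *Klf5*, 8 of *Cebpb* and 4 of *Cebpa*. Per 10000 gene UMIs, *Cebpb* stood at 2.66 in these wells (95% Poisson interval 1.15 to 5.24) and at 0.521 in the kept cells. *Gata3* stood at 15.0 (10.9 to 20.0) beside 11.2, while *Trp63* (5.66 beside 4.97) and *Klf4* (11.0 beside 11.2) had kept-cell levels inside their intervals. The 8 UMIs of *Cebpb* came from 4 wells.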

How the results depend on the processing

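In the sort comparison 38 genes and no factor passed. *Grhl3* met the filter on low counts in this fit only through the Tom+ libraries, the group in which it was higher. The genes numbered 8 at a minimum of 5000 UMIs, 14 without the 13 cells with at least 3 T cell, Langerhans cell, sebaceous or bulge markers, and 27 to 65 with each library left out, the 65 without Tom- replicate 1. The factors numbered 1 with thinned sums (*Trp63*, edgeR adjusted p = 0.0478), 1 without the infundibulum-marker cells (*Grhl3*, 4.57, edgeR adjusted p = 0.00675) and 0 to 2 with each library left out. These were *Trp63* without Tom- replicate 2 (0.0214), *Grhl3* without Tom+ replicate 1 (0.04999) or Tom- replicate 1 (0.0220), and *Cebpa* without Tom- replicate 1 (0.0277).

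The libraries of a run share a title tag, and the labels do not say what it marks. Run 1 minus run 2 correlated at r = 0.209 across 1061 genes between Tom+ and Tom-, with 2 pairs. With the run as a replicate block, 116 genes and 3 factors passed between the sorts (*Trp63* -1.13, *Grhl3* 2.43, *Cebpa* 1.24), and 1 gene in Krt10-negative cells. Here too *Grhl3* met the filter through the Tom+ libraries alone.

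By Krt10 class 110 genes and 1 factor passed. The genes numbered 73 with no filter, 28 at 5000 UMIs, 48 with thinned sums, 19 with at least 1 *Krt10* UMI as positive, 29 for 6 against 0 UMIs, 34 in Tom+ libraries only and 58 to 124 with each library left out. The factors numbered 0 under the first 6 of these and under the DESeq2 Wald test (*Cebpa* was under the filter, and so not tested, at 5000 UMIs, with thinned sums and for 6 against 0), 0 to 1 with each library left out, and 0.55 on average over the seeds. In Krt10-negative cells 3 genes passed, against 8 in limma-voom with 1 factor (*Trp63*), 5 without the top 5% of cells, 5 in cells with no *Krt10* UMI, and 0 with thinned sums or at 5000 UMIs. With each library left out 3 to 4 genes and 0 to 1 factor passed. The interaction called 2 genes, 4 in limma-voom and 7 with no filter.

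Signs turned only for differences that did not pass. Between sorts *Gata3* was 0.040 with no filter and 0.0097 at 5000 UMIs, *Klf3* -0.29 at 5000 UMIs and -0.014 with thinned sums, and with each library left out *Gata3* ran from -0.20 to 0.054, *Klf3* from -0.27 to 0.95 and *Ovol1* from -0.078 to 0.97. By class *Klf4* was -0.15 with no filter, -0.041 at 5000 UMIs and -0.035 without other-marker cells, *Gata3* -0.12 at 5000 UMIs, *Klf5* 0.32 with at least 1 UMI, and *Trp63* -0.13 at 5000 UMIs, -0.12 with no replicate block, -0.17 with at least 1 UMI and -0.058 for 6 against 0. With each library left out *Trp63* ran from -0.025 to 0.39, *Klf4* from -0.11 to 0.21 and *Klf5* from -0.40 to 0.31. In Krt10-negative cells *Ovol1* was 0.19 without the top 5%, *Klf4* 0.0089 without infundibulum-marker cells and *Cebpa* -0.16 to 1.73 with each library left out, and the *Cebpa* interaction was 0.18 with no filter. Share differences turned for *Klf5* over other seeds (-2.03 percentage points), *Klf3* at 5000 UMIs (-12.5) and *Gata3* without the top 5% (-1.16), and with each library left out ran from -7.66 to 9.84 for *Klf3*, -2.32 to 10.4 for *Ovol1*, -8.57 to 9.66 for *Gata3* and -1.63 to 17.5 for *Klf5*. The causes were not tested.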
